A study of Mus musculus with 12 samples.

Results

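The mitochondrial solute carriers of the SLC25 family were followed across 12 arrays of mouse gastrocnemius, a calf muscle made mainly of fast fibres. Members were all genes whose symbol in the platform annotation starts with Slc25a, which gave 46 of the 22180 genes named by a probeset of their own. Each of the 46 had 1 such probeset (a set of probes read as a single value). Of these, 36 passed the filter on dim genes and were tested, and 10 lay below it. Members of the family that carry other symbols, such as Ucp3, were not counted. The samples were 3 arrays each of wild-type (WT) mice at rest, ERRa-null mice at rest, WT mice 2 h after a treadmill run to exhaustion, and ERRa-null mice 2 h after such a run. All were FVB mice of 2 to 3 months, labelled male, and the resting groups are called sedentary and the others exercised. ERRa is the estrogen-related receptor alpha, a nuclear receptor encoded by Esrra that is known for driving genes of mitochondrial energy metabolism. The labels give the null genotype with no allele or tissue restriction. The question the design poses is how losing ERRa alters muscle transcripts at rest and after exhaustive exercise. Values are log2 expression values, so a difference of 1 is a doubling of signal. Values after ± are standard errors (SE) of the model unless called SD, and a gene is called when its p-value, adjusted over all 13308 genes tested, is under 0.05 (limma).

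SLC25 proteins form the main set of gates in the inner mitochondrial membrane, which is otherwise closed to most metabolites. Each member exchanges or imports a narrow class of substrates: adenine nucleotides and phosphate for ATP synthesis, citrate and malate for carbon transfer, aspartate and glutamate for the shuttle that moves reducing equivalents inward, acylcarnitine for fat oxidation, iron and glutathione for cofactor assembly and redox balance. In skeletal muscle the adenine nucleotide carrier Slc25a4, the phosphate carrier Slc25a3 and the aspartate-glutamate carrier Slc25a12 are known as abundant members.

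Promoter sequences were taken from RefSeq (GRCm38.p6), as windows of 250 bases before to 50 after each transcript start, and 36 of the 46 members had at least 1 window, 46 windows in all. Both strands were searched for TNAAGGTCA, the extended estrogen-related receptor element, for the shorter forms AAGGTCA and AGGTCA, which it contains, and for TGACGTCA, the cyclic AMP response element. The extended element was found in 0 of the 46 member windows and in 1.28% of all 32851 windows. AAGGTCA was found in 1 member window, against 4.72% of all windows, and that window belongs to Slc25a34. AGGTCA was found in 4 member windows, those of Slc25a34, Slc25a39, Slc25a45 and Slc25a47, against 16.3% of all. TGACGTCA was found in 2 member windows, Slc25a25 and Slc25a36, against 1.79% of all. A match is a string of letters and not a shown binding site. The sequences below, 5′ to 3′ on the gene's strand, are a choice and not all promoters of called carriers. Slc25a34 holds the AAGGTCA match and was called with exercise in WT mice, and Slc25a5 was called by genotype after exercise. Slc25a25 and Slc25a36 hold the TGACGTCA match, with Slc25a25 splitting the WT exercised arrays. Slc25a16 and Slc25a23, also called with exercise in WT mice, are not printed. For Slc25a34 (chr4:141623835-141624084, minus strand) the capitals mark AAGGTCA read on the opposite strand, starting 119 bases before the transcript start. For Slc25a5 (chrX:36795347-36795596, plus strand) no searched motif was present. For Slc25a25 (chr2:32424189-32424236, minus strand) and Slc25a36 (chr9:97111175-97111222, minus strand) the capitals mark TGACGTCA, 150 and 161 bases before the start.
Slc25a34: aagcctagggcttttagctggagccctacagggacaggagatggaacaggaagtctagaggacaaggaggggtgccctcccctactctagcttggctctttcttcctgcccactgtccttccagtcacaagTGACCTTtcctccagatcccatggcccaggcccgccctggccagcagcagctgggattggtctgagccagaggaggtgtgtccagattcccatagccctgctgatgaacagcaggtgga
Slc25a5: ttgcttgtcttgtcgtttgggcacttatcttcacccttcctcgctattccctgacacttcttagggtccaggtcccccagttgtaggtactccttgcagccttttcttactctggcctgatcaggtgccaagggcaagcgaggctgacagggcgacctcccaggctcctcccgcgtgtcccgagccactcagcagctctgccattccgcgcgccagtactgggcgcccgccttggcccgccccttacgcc
Slc25a25: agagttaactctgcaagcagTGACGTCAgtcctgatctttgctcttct
Slc25a36: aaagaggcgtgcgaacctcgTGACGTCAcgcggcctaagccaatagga

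The arrays were comparable in overall scale, with median log2 values of 5.15 to 5.26 and correlations between arrays of 0.970 to 0.987 over all probesets. The 11 skeletal muscle markers averaged 12.7 to 12.9 on every array. Esrra read 7.41 to 7.63 on the 6 WT arrays and 6.55 to 6.89 on the 6 ERRa-null arrays, so the groups did not overlap and some signal remained on the null arrays. The titles and descriptions agree on the 4 groups, but a further label gives the opposite exercise state for the ERRa-null sedentary and the WT exercised arrays. The groups here follow the titles. The arrays WT exercised 3, ERRa-null exercised 2 and ERRa-null exercised 3 (the female-profile arrays) read as female against a male label, with Xist at 7.82 to 7.90 and Eif2s3y at 4.97 to 5.20. Markers of other tissues were uneven. The 9 brown fat and adipocyte markers averaged 6.78 to 9.41 on the WT sedentary arrays, 7.04 to 8.49 on the ERRa-null sedentary, 7.08 to 7.46 on the WT exercised and 6.83 to 7.47 on the ERRa-null exercised. The 9 liver markers averaged 6.14 to 9.98, 6.06 to 8.77, 6.33 to 8.03 and 6.23 to 7.21 in the same order. The 5 lymphocyte markers averaged 7.04, 6.97 and 7.94 on WT sedentary 2, WT sedentary 3 and ERRa-null sedentary 1, and 4.5 to 4.71 on the other 9 arrays. Averaged over genotypes, the 3 of them that were tested had a median exercised minus sedentary difference of -1.42; 0 were called by limma and 3 had an unadjusted p under 0.05. The seminal vesicle gene Svs5 read 12.98 on ERRa-null sedentary 1 and at most 4.49 on the others. Calls that ended when the 3 female-profile arrays were left out are given below with both values.

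The adenine nucleotide carriers exchange matrix ATP for cytosolic ADP, and the phosphate carrier supplies the other substrate of ATP synthase. Slc25a5, the adenine nucleotide carrier expressed in many tissues, was lower in ERRa-null than in WT muscle after exercise. It averaged 9.83 over the 12 arrays and read 9.72, 9.90 and 9.87 on the WT sedentary arrays, 9.86, 9.55 and 9.61 on the ERRa-null sedentary, 10.37, 10.01 and 10.18 on the WT exercised, and 9.65, 9.54 and 9.69 on the ERRa-null exercised. All 3 WT exercised arrays lay above all 9 others, and the ERRa-null exercised arrays lay among the ERRa-null sedentary ones, apart from 1 just below them. After exercise the ERRa-null level was 0.680 times the WT level (log2 difference -0.56 ± 0.10, adjusted p = 0.0483). This was the 1 member called in that comparison, 2.78% of 36, against 0.286% of all genes called lower. In sedentary muscle the difference was -0.15 ± 0.10 (adjusted p = 0.777), and averaged over both states it was -0.35 ± 0.07 (adjusted p = 0.0363). Within WT mice the exercised minus sedentary difference was 0.36 ± 0.10 and missed the threshold (adjusted p = 0.0943), and in ERRa-null mice it was -0.05 ± 0.10 (adjusted p = 0.883). The test of the difference between those changes gave -0.40 ± 0.15 with an adjusted p of 0.948. In bulk tissue, fewer cells of a type and less RNA per cell cannot be told apart.

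The Slc25a5 call after exercise lies close to the threshold. It was lost when any array but ERRa-null sedentary 1 was left out, with adjusted p from 0.0514 to 0.166, and differences of -0.64 to -0.47. With the averages of the other-tissue marker lists as covariates it also missed the threshold (-0.50, adjusted p = 0.0560). Without the 3 female-profile arrays the difference was -0.53 with an adjusted p of 0.510. Slc25a5 is X-linked, and it read 10.18, 9.54 and 9.69 on those arrays. In the ERRa-null exercised group only array 1, at 9.65, is not of female profile. The part of sex in the difference was not tested. The averaged genotype call was also lost without those 3 arrays (difference -0.34, adjusted p = 0.331), and without any single array other than ERRa-null sedentary 1 and WT exercised 2 (adjusted p 0.0519 to 0.111).

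Slc25a4, the adenine nucleotide carrier of heart and skeletal muscle, and Slc25a3, the phosphate carrier, had the same ordering of arrays after exercise with smaller differences. Slc25a4 averaged 11.99 and read 12.09, 12.04 and 11.96 on the WT sedentary arrays, 11.78, 11.96 and 11.98 on the ERRa-null sedentary, 12.16, 12.11 and 12.10 on the WT exercised, and 11.91, 11.82 and 11.94 on the ERRa-null exercised. The 3 WT exercised arrays were the highest of the 12, and the sedentary groups overlapped. The ERRa-null minus WT difference was -0.23 ± 0.06 after exercise (0.851 times, adjusted p = 0.145) and -0.12 ± 0.06 at rest (adjusted p = 0.647). Slc25a3 averaged 10.32 and read 10.45, 10.51 and 10.28, then 10.09, 10.27 and 10.30, then 10.47, 10.44 and 10.48, then 10.18, 10.19 and 10.23 in the same group order. The exercised groups did not overlap and each spanned little (SD 0.02 in both), whereas 1 WT sedentary array fell among the ERRa-null sedentary ones. Its difference was -0.26 ± 0.07 after exercise (adjusted p = 0.164), -0.19 ± 0.07 at rest (adjusted p = 0.493) and -0.23 ± 0.05 averaged over states (adjusted p = 0.0547). Without WT sedentary 3, the averaged difference of Slc25a3 passed the threshold (-0.26, adjusted p = 0.0203). Slc25a31, the testis form of the adenine nucleotide carrier, averaged 4.32 and read 4.13, 4.18 and 4.45, 4.47, 4.24 and 4.55, 4.07, 4.31 and 4.33, and 4.28, 4.42 and 4.43, and was not tested.

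**Figure D1:**
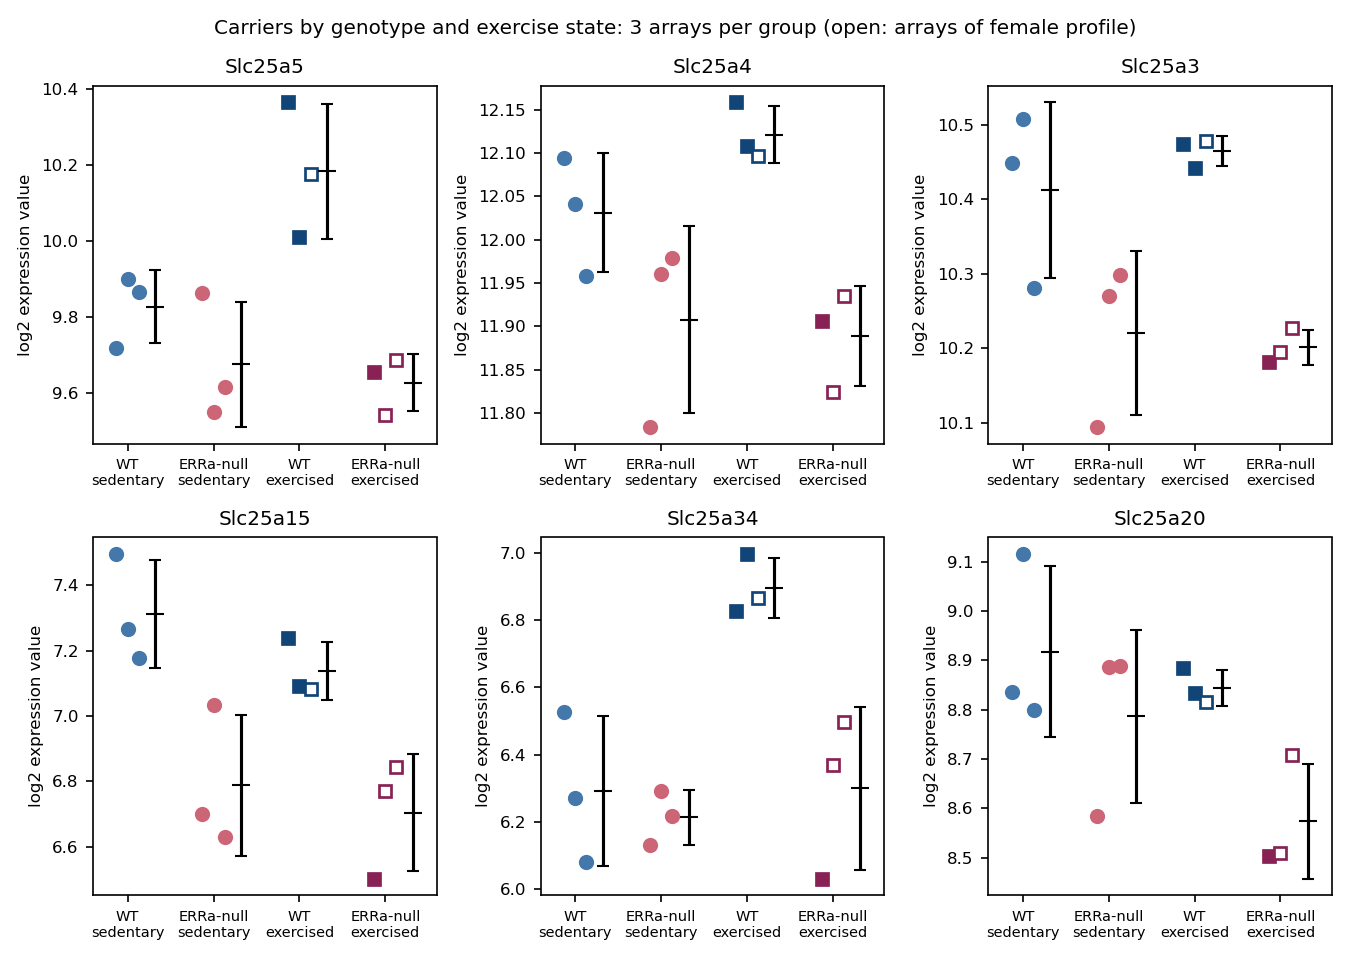
Log2 expression values (vertical axes, each with its own range) of 6 carriers on the 3 arrays of each group; open symbols are arrays of female profile, the horizontal bar is the group mean and the vertical bar its SD. After exercise the WT and ERRa-null arrays do not overlap for any of the 6, and for Slc25a15 they do not overlap at rest either.

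Among carriers of coenzyme A and related cofactors, Slc25a16 fell after exercise. It is an inner-membrane carrier tied to mitochondrial coenzyme A, first described as a Graves disease antigen. It averaged 8.42 and read 8.56, 8.59 and 8.68 on the WT sedentary arrays, 8.45, 8.51 and 8.72 on the ERRa-null sedentary, 8.09, 8.28 and 8.29 on the WT exercised, and 8.25, 8.25 and 8.36 on the ERRa-null exercised. Every sedentary array lay above every exercised array, 6 against 6, which held for 2.02% of all genes in that direction. The exercised minus sedentary difference was -0.39 ± 0.09 in WT mice (0.763 times, adjusted p = 0.0344), -0.27 ± 0.09 in ERRa-null mice (adjusted p = 0.223) and -0.33 ± 0.06 averaged over genotypes (adjusted p = 0.00881). The averaged call held when any 1 array was left out (adjusted p at most 0.0280). It missed the threshold without the 3 female-profile arrays (-0.37, adjusted p = 0.102) and with the other-tissue averages as covariates (-0.54, adjusted p = 0.0884). The WT call was lost without any 1 of the 6 WT arrays or of ERRa-null exercised 2 and 3 (adjusted p 0.050 to 0.126), and without the 3 female-profile arrays (-0.43, adjusted p = 0.111). Slc25a42, the mitochondrial coenzyme A carrier (mean 8.52 over the 12 arrays), and Slc25a17, a peroxisomal relative (mean 6.29), were not called in any comparison, with exercise differences in WT mice of -0.16 ± 0.13 and -0.34 ± 0.15.

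The ATP-Mg/phosphate carriers set the total adenine nucleotide content of the matrix, and Slc25a23, Slc25a24 and Slc25a25 are opened by calcium. The 3 tested members differed in their values with exercise. Slc25a23 averaged 8.03 and read 8.85, 8.11 and 8.43 on the WT sedentary arrays, 8.11, 8.31 and 8.25 on the ERRa-null sedentary, 7.62, 7.28 and 7.74 on the WT exercised, and 8.33, 7.57 and 7.72 on the ERRa-null exercised. The 3 WT exercised arrays lay below all WT sedentary ones, while ERRa-null exercised 1 stayed among the sedentary values. Slc25a23 fell in WT mice to 0.529 times the sedentary level (-0.92 ± 0.21, adjusted p = 0.0349), and the difference was -0.35 ± 0.21 in ERRa-null mice (adjusted p = 0.509). The changes in the 2 genotypes differed by 0.57 ± 0.30 (adjusted p = 0.997). Averaged over genotypes, Slc25a23 fell by 0.64 ± 0.15 (adjusted p = 0.0250). The WT call held without the 3 female-profile arrays (-1.02, adjusted p = 0.0439) and the averaged call did not (-0.46, adjusted p = 0.268). With the other-tissue averages as covariates neither was called (-1.08 and -0.77, adjusted p = 0.227 and 0.328). In the WT comparison, leaving out WT sedentary 1 or 3, ERRa-null sedentary 3, any WT exercised array or ERRa-null exercised 3 gave adjusted p of 0.0508 to 0.117. In the averaged comparison, leaving out WT sedentary 3, ERRa-null sedentary 2 or 3, WT exercised 2, or ERRa-null exercised 2 or 3 gave 0.0521 to 0.0682.

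Slc25a24 moved the other way. It averaged 6.65 and read 6.44, 6.51 and 6.44 on the WT sedentary arrays, 6.43, 6.69 and 6.52 on the ERRa-null sedentary, 6.60, 6.73 and 6.90 on the WT exercised, and 6.76, 6.90 and 6.93 on the ERRa-null exercised. Within each genotype the exercised arrays lay above the sedentary ones. The difference was 0.28 ± 0.10 in WT mice (adjusted p = 0.176), 0.31 ± 0.10 in ERRa-null mice (adjusted p = 0.203) and 0.30 ± 0.07 averaged over genotypes, where Slc25a24 rose (1.23 times, adjusted p = 0.0254). The 3 female-profile arrays were the 3 highest, and without them the averaged difference was 0.21 (adjusted p = 0.352). With the averages of the other-tissue marker lists as covariates it was 0.03 (adjusted p = 0.960). Single arrays also ended this call: without WT sedentary 3, ERRa-null sedentary 1 or 3, WT exercised 3, or ERRa-null exercised 2 or 3, adjusted p was 0.0528 to 0.0683.

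Slc25a25, also of this class, scattered widely. It averaged 7.63 and read 7.05, 7.08 and 6.68 on the WT sedentary arrays, 7.23, 8.66 and 7.90 on the ERRa-null sedentary, 8.96, 8.84 and 6.54 on the WT exercised, and 7.06, 8.42 and 7.18 on the ERRa-null exercised. All ERRa-null sedentary arrays lay above all WT sedentary ones, and WT exercised 3, an array of female profile, was the lowest of the 12 while the other WT exercised arrays were the highest. The exercise difference in WT mice was 1.18 ± 0.58 with an adjusted p of 0.353. It became 1.96 with an adjusted p of 0.0354 when WT exercised 3 was left out, and 1.96 with 0.0253 when all 3 arrays of female profile were. The ERRa-null minus WT difference at rest was 0.99 ± 0.58 (adjusted p = 0.722), the exercise difference in ERRa-null mice -0.37 ± 0.58 (adjusted p = 0.829), and the test of the difference between the exercise changes gave -1.55 ± 0.82 (adjusted p = 0.997). Its promoter window holds the TGACGTCA match printed above. Slc25a41, the remaining member of the class, averaged 4.75 and was not tested.

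**Figure D2:**
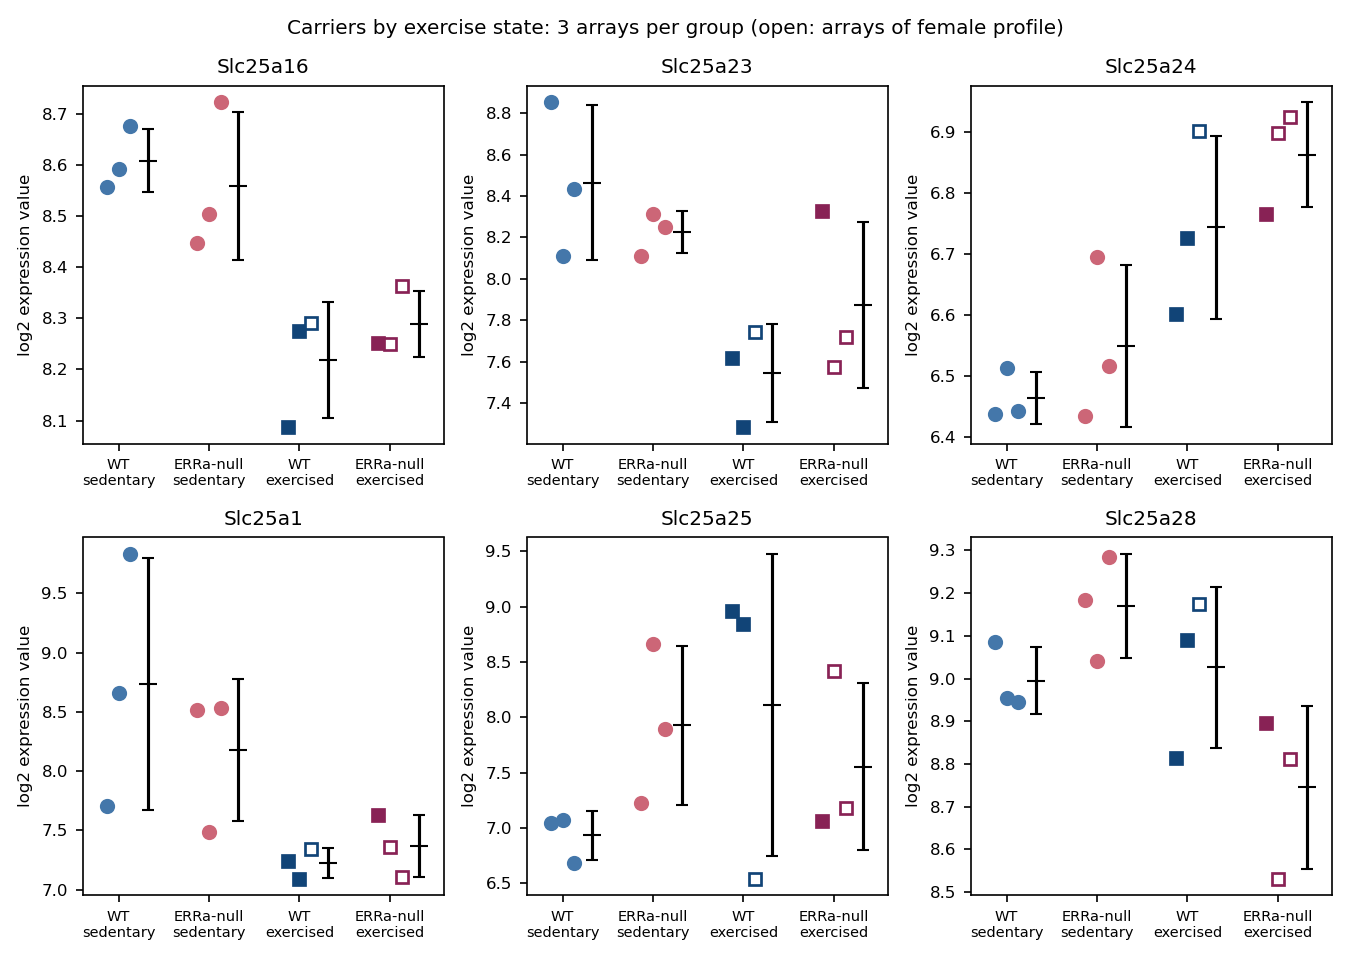
Log2 expression values (vertical axes, each with its own range) of 6 carriers on the 3 arrays of each group; open symbols are arrays of female profile, and bars give the group mean and SD. Slc25a16 is lower on all 6 exercised arrays than on the 6 sedentary ones, and Slc25a25 splits the WT exercised group into 2 arrays above 8.8 and 1 at 6.54.

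Slc25a34, a carrier listed here without a settled substrate, rose with exercise in WT muscle. It averaged 6.43 and read 6.53, 6.27 and 6.08 on the WT sedentary arrays, 6.13, 6.29 and 6.22 on the ERRa-null sedentary, 6.83, 7.0 and 6.87 on the WT exercised, and 6.03, 6.37 and 6.50 on the ERRa-null exercised. The 3 WT exercised arrays were the highest of the 12, and the other 3 groups overlapped one another. The exercise difference in WT mice was 0.60 ± 0.14 (1.52 times, adjusted p = 0.0308), and in ERRa-null mice it was 0.09 ± 0.14 (adjusted p = 0.831). After exercise the ERRa-null minus WT difference was -0.60 ± 0.14 and missed the threshold (adjusted p = 0.0844). The difference between the exercise changes was -0.52 ± 0.19 (adjusted p = 0.948). The WT call was lost when WT sedentary 2 or 3 or any WT exercised array was left out (adjusted p 0.0698 to 0.124), without the 3 female-profile arrays (0.62, adjusted p = 0.0755), and with the other-tissue averages as covariates (0.39, adjusted p = 0.456). Averaged over genotypes the difference was 0.35 ± 0.10 (adjusted p = 0.0523), and it passed the threshold without WT sedentary 1 (adjusted p = 0.0240) or without ERRa-null exercised 1 (adjusted p = 0.0172). The AAGGTCA match printed above is in the promoter window of this gene.

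Slc25a35, a close relative of Slc25a34, had the opposite ordering. It averaged 7.45 and read 7.30, 7.81 and 8.28 on the WT sedentary arrays, 7.78, 7.41 and 7.79 on the ERRa-null sedentary, 7.19, 7.11 and 7.07 on the WT exercised, and 7.60, 7.02 and 7.01 on the ERRa-null exercised. The difference was -0.67 ± 0.22 in WT mice (adjusted p = 0.141) and -0.56 ± 0.16 averaged over genotypes (adjusted p = 0.0530). Without WT sedentary 1 the WT difference was -0.92 (adjusted p = 0.0308). Over the 24 alternatives it ran from -0.92 to -0.29 and was called in that 1 only. The averaged difference ran from -0.68 to -0.23 over 22 alternatives and was called in 4. Slc25a35 was highest on WT sedentary 2 and 3 and ERRa-null sedentary 1 and 3, which also had the highest averages of the 9 brown fat and adipocyte markers. Single removals gave -0.92 to -0.43 in WT mice and -0.68 to -0.44 averaged, so the weaker ends came from other alternatives. With the other-tissue averages as covariates, Slc25a35 was called in neither comparison. In that fit 73 genes in all were called in WT mice and 57 averaged over genotypes. The part of other tissue in the values of Slc25a35 was not tested further. The orphan carriers Slc25a43, Slc25a53 and Slc25a54 averaged 3.88, 4.59 and 4.57 and were not tested.

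The citrate carrier Slc25a1, which exports citrate for cytosolic lipid synthesis, fell with exercise over both genotypes. It averaged 7.88 and read 7.71, 8.66 and 9.83 on the WT sedentary arrays, 8.52, 7.49 and 8.53 on the ERRa-null sedentary, 7.25, 7.09 and 7.35 on the WT exercised, and 7.63, 7.36 and 7.11 on the ERRa-null exercised. The sedentary arrays spread widely (SD 1.06 in WT), and all 6 exercised arrays lay at or below 7.63. The averaged difference was -1.16 ± 0.30 (0.448 times, adjusted p = 0.0382), with -1.51 ± 0.42 in WT mice (adjusted p = 0.0811) and -0.81 ± 0.42 in ERRa-null mice (adjusted p = 0.444). The 4 arrays with Slc25a1 above 8 were also the 4 with the highest average of the 9 brown fat and adipocyte markers, and 1 of those 9 was called lower with exercise, averaged over genotypes. They include the 3 arrays with high lymphocyte markers. With the averages of the other-tissue lists as covariates the averaged difference of Slc25a1 was -0.77 (adjusted p = 0.195). The part of other tissue in this result was not tested further. The averaged call was lost without the 3 female-profile arrays (-1.06, adjusted p = 0.344) and without any single array other than WT sedentary 1 or 3, ERRa-null sedentary 2 or ERRa-null exercised 1 (adjusted p 0.0645 to 0.0931). In WT mice, leaving out WT sedentary 1 alone gave -2.02 with an adjusted p of 0.0109.

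The dicarboxylate carrier Slc25a10, which trades malate or succinate for phosphate, averaged 5.96 and read 6.12, 6.15 and 6.36 on the WT sedentary arrays against 5.94, 5.87 and 5.67 on the WT exercised, and its difference was -0.38 ± 0.15 (adjusted p = 0.239). With the other-tissue averages as covariates that difference was 0.03. The oxoglutarate-malate carrier Slc25a11, a part of the malate-aspartate shuttle, averaged 11.02 and read 11.22, 11.19 and 10.84 on the WT sedentary arrays, 10.78, 11.06 and 10.96 on the ERRa-null sedentary, 11.15, 11.04 and 11.18 on the WT exercised, and 10.86, 10.91 and 10.99 on the ERRa-null exercised. Its exercised groups did not overlap, with a difference of -0.20 ± 0.10 (adjusted p = 0.539). The oxodicarboxylate carrier Slc25a21 averaged 3.89 and was not tested.

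**Figure D3:**
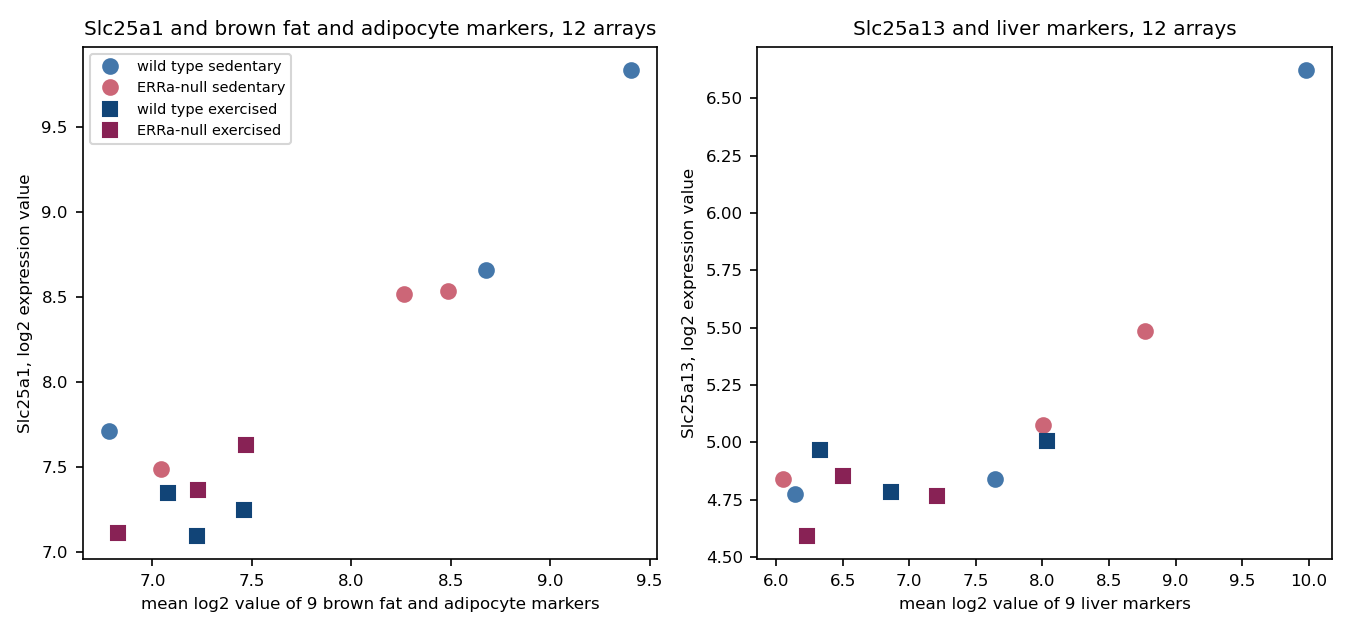
Log2 expression value of Slc25a1 against the mean of the 9 brown fat and adipocyte markers (left), and of Slc25a13 against the mean of the 9 liver markers (right), 1 point per array, coloured by group. The highest Slc25a1 value, 9.83, sits at a marker mean of 9.41, and the highest Slc25a13 value, 6.62, at a liver marker mean of 9.98.

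Slc25a15, which exchanges ornithine for citrulline, was lower in ERRa-null than in WT muscle when both states were averaged. It read 7.50, 7.27 and 7.18 on the WT sedentary arrays, 6.70, 7.03 and 6.63 on the ERRa-null sedentary, 7.24, 7.09 and 7.08 on the WT exercised, and 6.50, 6.77 and 6.84 on the ERRa-null exercised. All 6 WT arrays lay above all 6 ERRa-null arrays, which held for 1.01% of all genes in that direction. The difference was -0.53 ± 0.13 at rest (adjusted p = 0.204), -0.43 ± 0.13 after exercise (adjusted p = 0.212) and -0.48 ± 0.09 averaged over states (0.717 times, adjusted p = 0.0247). The averaged difference was as large without the 3 female-profile arrays (-0.59), though its adjusted p was then 0.141, and with the other-tissue averages as covariates it stayed called (-0.46, adjusted p = 0.0363). The call was lost without WT sedentary 1 or 2, ERRa-null sedentary 1 or 3, WT exercised 1, or ERRa-null exercised 1 or 2 (adjusted p 0.0530 to 0.0666). Its relative Slc25a2 averaged 4.41 and was not tested.

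Slc25a12, the calcium-regulated aspartate-glutamate carrier of muscle and brain, showed small differences. It averaged 11.95 and read 11.99, 11.98 and 11.93 on the WT sedentary arrays, 11.74, 11.96 and 11.94 on the ERRa-null sedentary, 11.87, 11.88 and 12.06 on the WT exercised, and 11.95, 11.93 and 12.12 on the ERRa-null exercised, and the groups overlapped in each comparison. The genotype difference was -0.09 (95% interval -0.25 to 0.08) at rest and 0.06 (-0.10 to 0.23) after exercise. Its liver-type relative Slc25a13 averaged 5.05 and read 6.62, 4.84 and 4.78, then 5.07, 5.48 and 4.84, then 5.01, 4.78 and 4.97, then 4.59, 4.85 and 4.77, and was not tested. The single high value was on WT sedentary 1, where Alb, the liver's albumin gene, was also highest (12.82, against 6.24 on the lowest array). Slc25a47, known from liver, was tested (mean 6.27) and was also highest on that array at 6.97, and the part of liver RNA was not tested.

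The other members listed here in the amino acid class were called in no comparison. They comprise the glutamate carrier Slc25a22 (mean 7.02), the basic amino acid carrier Slc25a29 (5.79), the glycine carrier of heme synthesis Slc25a38 (6.43), the branched-chain amino acid carrier Slc25a44 (8.07), Slc25a45 (6.03), and Slc25a48. Slc25a48 is in this class only by the list used here, without a settled amino acid substrate. This gene averaged 5.65 and read 5.74, 5.67 and 5.74 on the WT sedentary and 5.43, 5.62 and 5.51 on the ERRa-null sedentary arrays, without overlap, at a difference of -0.20 ± 0.10 (adjusted p = 0.637). Slc25a18, a second glutamate carrier, averaged 5.08 and was not tested. In sedentary muscle the genotype estimates of all 9 tested members of the amino acid class as listed here lay below 0, with a median of -0.07. Over all tested carriers 28 of 36 lay below 0, and 50.4% of all genes did. Some of the 9 were almost level: ERRa-null and WT sedentary means were 8.164 and 8.166 for Slc25a44, and 6.354 and 6.366 for Slc25a38. After exercise 5 of the 9 lay below 0, with a median of -0.04.

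Slc25a20 brings acylcarnitine into the matrix for fat oxidation. It averaged 8.78 and read 8.84, 9.12 and 8.80 on the WT sedentary arrays, 8.58, 8.89 and 8.89 on the ERRa-null sedentary, 8.88, 8.83 and 8.81 on the WT exercised, and 8.50, 8.51 and 8.71 on the ERRa-null exercised. After exercise the genotypes did not overlap, with a difference of -0.27 ± 0.11 (adjusted p = 0.393), and at rest they did (-0.13 ± 0.11, adjusted p = 0.813).

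The iron importers Slc25a28 and Slc25a37 (mitoferrins) differed in their ordering. Slc25a28 averaged 8.98 and read 9.09, 8.95 and 8.94 on the WT sedentary arrays, 9.18, 9.04 and 9.28 on the ERRa-null sedentary, 8.81, 9.09 and 9.17 on the WT exercised, and 8.90, 8.53 and 8.81 on the ERRa-null exercised. The 3 ERRa-null exercised arrays lay below all ERRa-null sedentary ones (-0.42 ± 0.12, adjusted p = 0.138), while the WT groups overlapped (0.03 ± 0.12, adjusted p = 0.929). The difference between these changes was -0.46 ± 0.16 (adjusted p = 0.938), and -0.23 without the 3 female-profile arrays. Slc25a37 averaged 7.57 and read 7.65, 7.55 and 7.69, then 7.55, 7.40 and 7.51, then 7.71, 7.65 and 7.63, then 7.62, 7.44 and 7.44 in the order used above. Its ERRa-null arrays lay below the WT arrays in both states, with differences of -0.14 ± 0.08 for the sedentary groups (adjusted p = 0.711) and -0.16 ± 0.08 for the exercised (adjusted p = 0.520).

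The glutathione importers Slc25a39 and Slc25a40 gave differences of small size. Slc25a39 averaged 8.50 and read 8.62, 8.50 and 8.47 on the WT sedentary arrays, 8.65, 8.55 and 8.54 on the ERRa-null sedentary, 8.35, 8.28 and 8.42 on the WT exercised, and 8.47, 8.52 and 8.58 on the ERRa-null exercised. The WT exercised arrays were the lowest group, below the WT sedentary (-0.17 ± 0.07, adjusted p = 0.262) and the ERRa-null exercised ones, from which they differed by 0.17 ± 0.07 (ERRa-null minus WT, adjusted p = 0.447). Slc25a40 averaged 6.31 and read 6.21, 6.27 and 6.30, then 6.27, 6.51 and 6.58, then 6.23, 6.17 and 6.24, then 6.36, 6.21 and 6.38, with a genotype difference of 0.19 ± 0.09 at rest (adjusted p = 0.635).

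The pyrimidine nucleotide carriers Slc25a33 and Slc25a36 supply mitochondrial DNA and RNA synthesis. Slc25a33 averaged 7.31 and read 7.28, 7.29 and 6.94 on the WT sedentary arrays, 6.78, 7.51 and 7.33 on the ERRa-null sedentary, 7.32, 7.87 and 7.55 on the WT exercised, and 6.99, 7.62 and 7.30 on the ERRa-null exercised. Its WT exercised arrays lay just above the WT sedentary ones (0.41 ± 0.21, adjusted p = 0.376), and that estimate was -0.13 with the other-tissue averages as covariates. Slc25a36 averaged 7.16 and read 7.43, 7.20 and 7.25, then 6.87, 7.0 and 7.24, then 7.42, 7.04 and 7.41, then 7.24, 6.93 and 6.96, so the genotypes overlapped in both states. Its difference was -0.25 ± 0.13 at rest and -0.25 ± 0.13 after exercise (adjusted p = 0.680 and 0.602). Of the other cofactor carriers, Slc25a26 (S-adenosylmethionine, mean 6.90) and Slc25a32 (folate, 6.87) did not overlap between genotypes after exercise, at -0.22 ± 0.10 and -0.13 ± 0.10, and Slc25a51 (NAD, 5.55) gave 0.02 ± 0.11. Slc25a32 was also lower without overlap in exercised than in sedentary ERRa-null muscle (-0.26 ± 0.10, adjusted p = 0.277).

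The relatives of the uncoupling proteins, Slc25a27 (mean 6.53) and Slc25a30 (7.22), were called in no comparison, and Slc25a14 averaged 4.98 and was not tested. Slc25a46, which sits in the outer membrane and acts in mitochondrial dynamics, averaged 9.23 and read 9.28, 9.30 and 9.32 on the WT sedentary arrays, 9.20, 9.26 and 9.28 on the ERRa-null sedentary, 9.14, 9.31 and 9.31 on the WT exercised, and 9.12, 9.09 and 9.15 on the ERRa-null exercised. The ERRa-null exercised arrays lay below the ERRa-null sedentary ones, at -0.13 ± 0.07 (adjusted p = 0.432). Which probes make up each probeset was not analysed here, so signal shared between close relatives cannot be told apart.

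Counted over the 36 tested Slc25a genes, genotype moved few carriers past the threshold. In sedentary muscle 0 of 36 were called, against 0.0301% of all genes called lower, and 2 (Slc25a15 and Slc25a3) had an unadjusted p under 0.05 with a lower level, against 4.16%. The ERRa-null estimate was below 0 for 28 of 36 carriers (77.8%), against 50.4% of all genes, with a median of -0.07. It was also below 0 for 19 of the 26 other genes of mitochondrial membrane transport described below, with a median of -0.10. In the same comparison the 5 slow fibre markers were all higher in ERRa-null muscle, with a median of 0.55; 0 of them were called by limma and 4 had an unadjusted p under 0.05. Their mean per array was 8.41 to 9.15 in WT and 9.01 to 9.53 in ERRa-null sedentary muscle, and after exercise 8.64 to 9.39 and 8.96 to 9.33, with a median difference of 0.13. Their part in the carriers' values was not tested. The arrays did not overlap for 4 lower carriers (Slc25a15, Slc25a37, Slc25a46 and Slc25a48, against 6.53%) and 1 higher carrier (Slc25a25, against 6.91%). After exercise 1 of 36 was called lower and 8 (22.2%) had an unadjusted p under 0.05 with a lower level, against 6.64%. Estimates were below 0 for 21 of 36 (58.3%), against 49.6%, with a median of -0.06. The arrays did not overlap for 10 lower carriers (27.8%), against 9.31% of all genes, namely Slc25a3, Slc25a4, Slc25a5, Slc25a11, Slc25a15, Slc25a20, Slc25a26, Slc25a32, Slc25a34 and Slc25a37, and for 1 higher carrier, Slc25a39, against 6.64%. The 2 genotype comparisons use different arrays.

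Averaged over states, 2 carriers were called lower (Slc25a5 and Slc25a15, 5.56%), against 0.999% of all genes, and estimates were below 0 for 26 of 36 (72.2%), against 49.8%. Without the 3 female-profile arrays 0 of 36 were called in each genotype comparison, where 4 genes in all were called at rest, 5 after exercise and 6 averaged over states, so this count says nothing particular about the carriers. These shares describe the carriers and carry no test of their own.

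**Figure D4:**
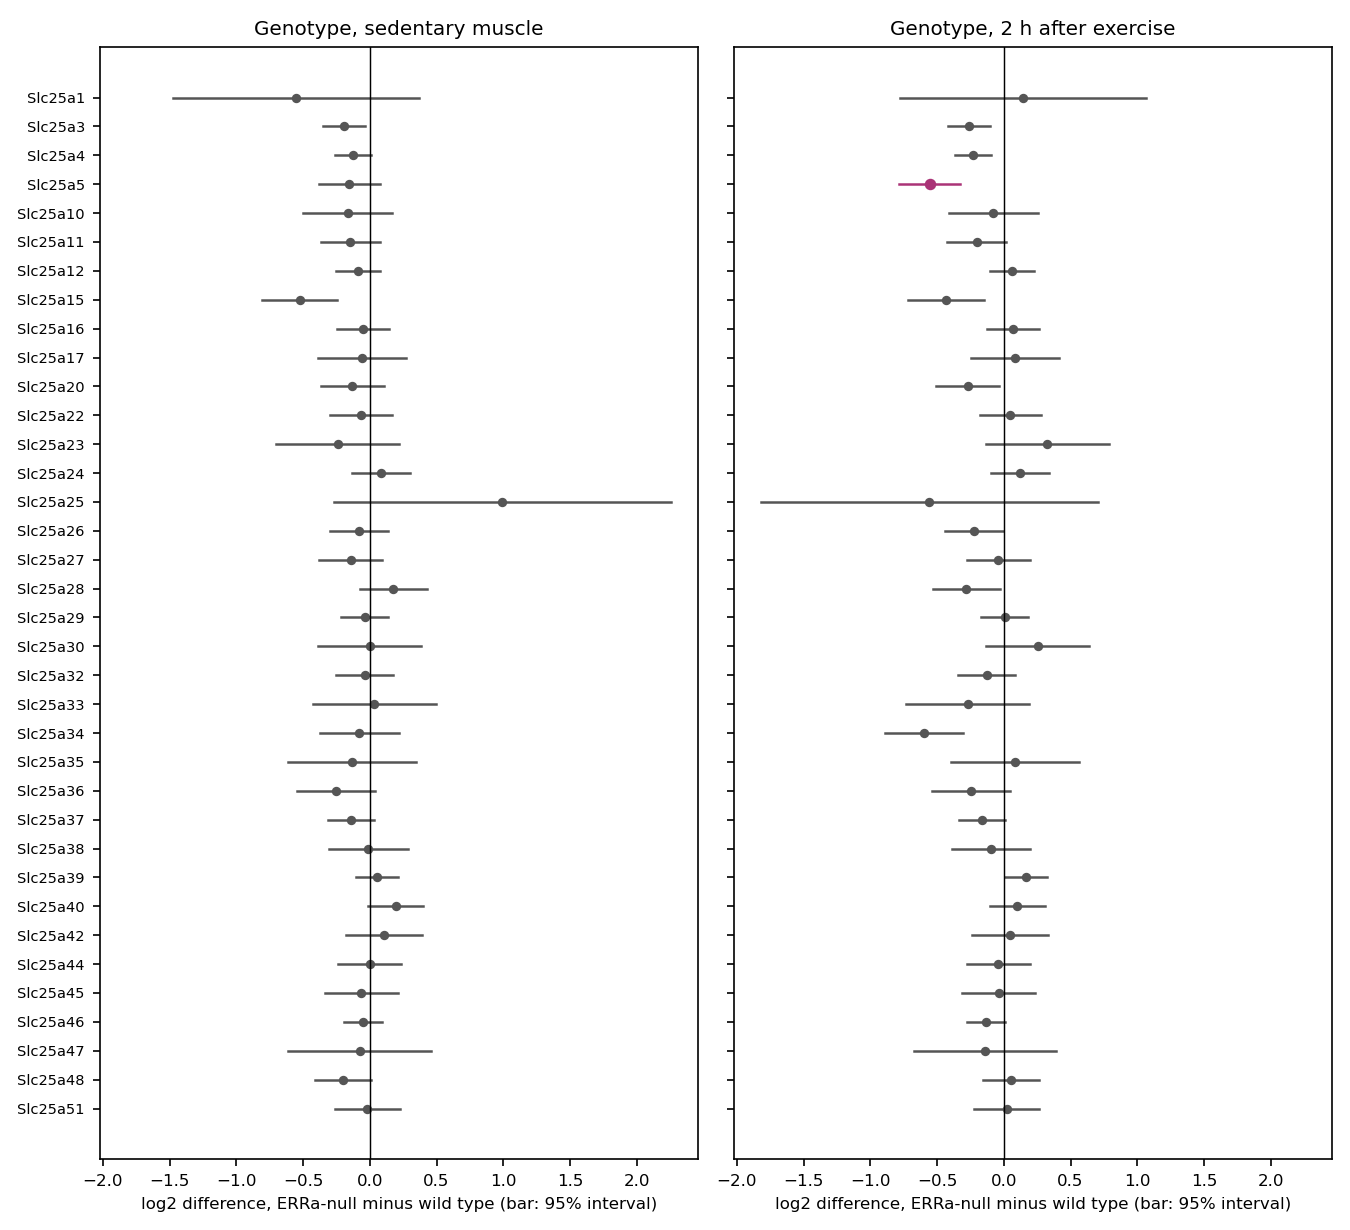
ERRa-null minus WT log2 differences (horizontal axis) with 95% intervals of the model for the 36 tested carriers, in sedentary muscle (left) and 2 h after exercise (right); larger coloured points are called. After exercise only Slc25a5, at -0.56, is called, and 21 of 36 estimates lie left of 0.

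Exercise moved 3 of 36 carriers past the threshold in WT mice. Slc25a34 rose (1 of 36, 2.78%, against 2.22% of all genes called higher) and Slc25a16 and Slc25a23 fell (2 of 36, 5.56%, against 1.21% called lower). The arrays did not overlap for 6 higher carriers (Slc25a4, Slc25a5, Slc25a24, Slc25a33, Slc25a34 and Slc25a38, 16.7% against 10.0%) and 7 lower ones (Slc25a1, Slc25a10, Slc25a16, Slc25a23, Slc25a35, Slc25a39 and Slc25a44, 19.4% against 11%). Without the 3 female-profile arrays 2 carriers were called, Slc25a23 and Slc25a25. In ERRa-null mice 0 of 36 were called by limma, against 0.383% of all genes called higher and 0.255% called lower. At an unadjusted p under 0.05, 1 was higher (Slc25a24, 2.78% against 5.79%) and 3 were lower (Slc25a16, Slc25a28 and Slc25a32, 8.33% against 7.30%). Arrays did not overlap for 3 higher carriers (Slc25a24, Slc25a29 and Slc25a48, against 8.99%) and 4 lower ones (Slc25a16, Slc25a28, Slc25a32 and Slc25a46, against 10.0%).

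Averaged over genotypes, Slc25a24 rose (2.78%, against 3.14% called higher) and Slc25a1, Slc25a16 and Slc25a23 fell (8.33%, against 3.43% called lower). The interaction of genotype and exercise called 0 of 36 carriers by limma. At an unadjusted p under 0.05 it gave 3, all with a lower change in ERRa-null mice (Slc25a5, Slc25a28 and Slc25a34, 8.33% against 3.20%), so a response that differs between genotypes was not shown for any carrier. The WT and ERRa-null exercise comparisons use different arrays, while the WT exercise comparison and the genotype comparison after exercise share the 3 WT exercised arrays, on which Slc25a5 and Slc25a34 were highest.

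**Figure D5:**
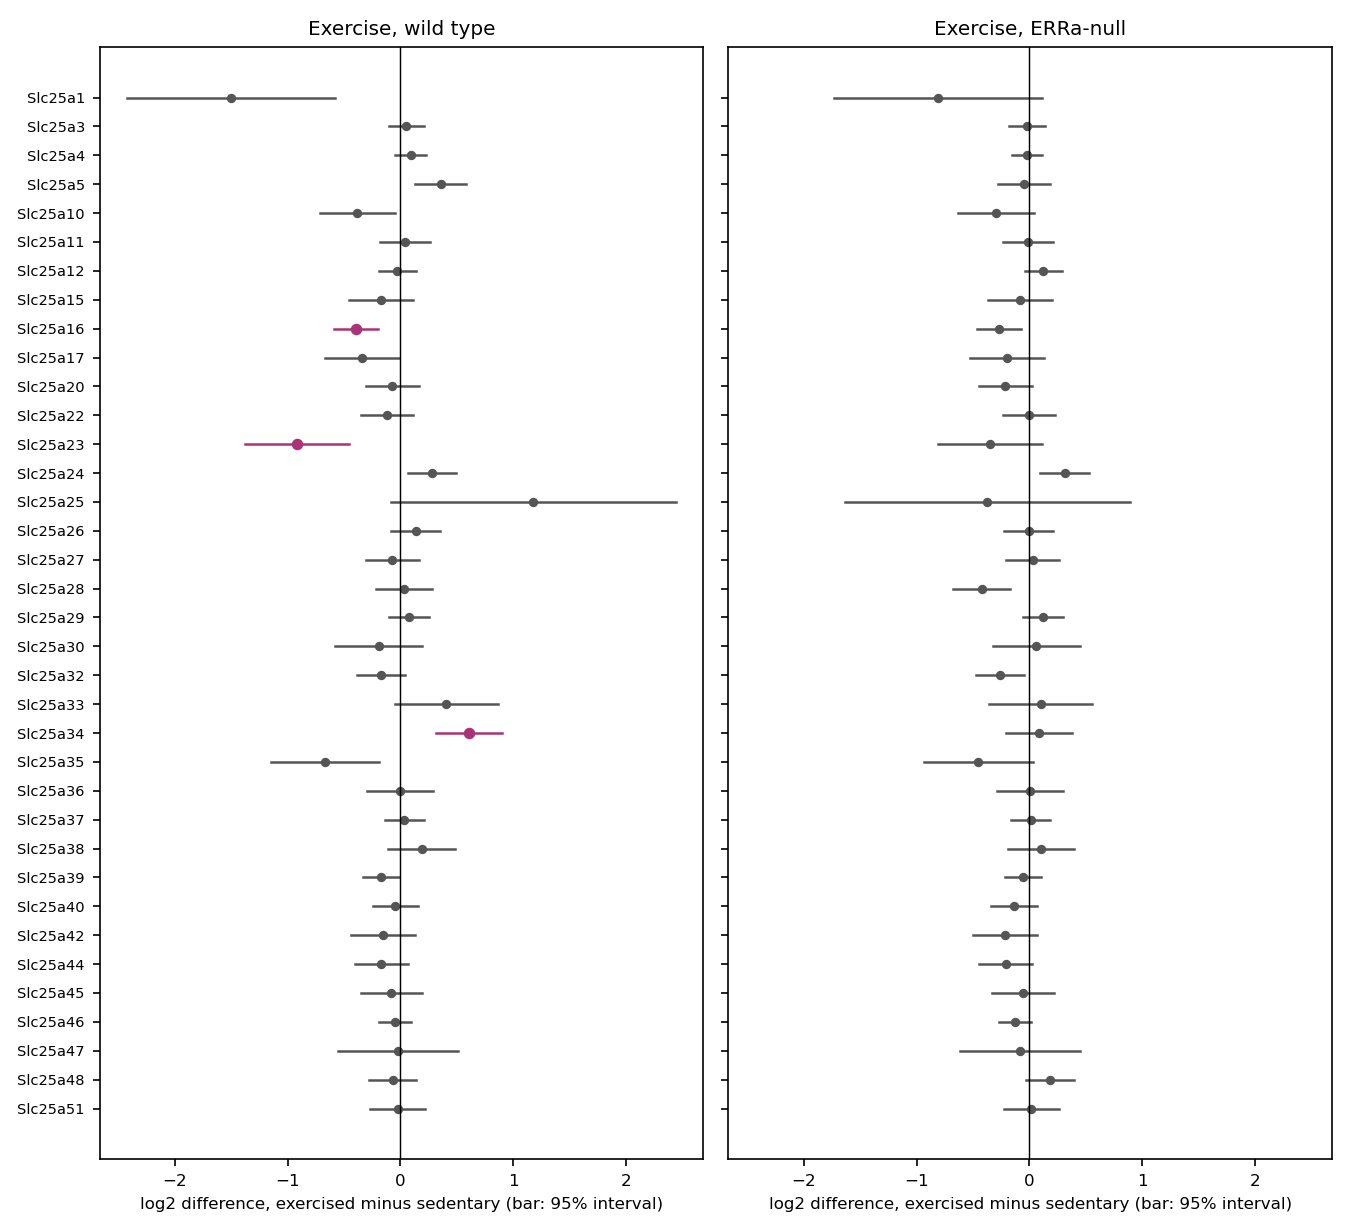
Exercised minus sedentary log2 differences (horizontal axis) with 95% intervals of the model for the 36 tested carriers, in WT (left) and ERRa-null mice (right); larger coloured points are called. Slc25a34 at 0.60, Slc25a16 at -0.39 and Slc25a23 at -0.92 are called in WT mice and no carrier in ERRa-null mice, where Slc25a1 and Slc25a25 keep wide intervals.

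Other genes of mitochondrial membrane transport served as a setting for the carriers. Of 32 listed genes 26 were on the array by a probeset of their own, and all 26 were tested. Genotype called 0 of 26 at rest and 0 after exercise, against 0.0301% and 0.286% of all genes called lower. Averaged over states 2 were called lower, against 0.999% of all genes. Those were Cpt2, the matrix carnitine palmitoyltransferase that acts on what Slc25a20 imports (-0.32 ± 0.07, adjusted p = 0.0467), and Ghitm, an inner-membrane protein (-0.31 ± 0.07, adjusted p = 0.0457). Both fell close to the threshold, and each call was lost in 10 of 12 removals of a single array, with adjusted p of up to 0.133 for Cpt2 and 0.128 for Ghitm. Without the 3 female-profile arrays neither was called (-0.33 and -0.34, adjusted p = 0.233 and 0.281). The median of the 26 was -0.10 at rest and -0.08 after exercise, and 19 and 14 estimates lay below 0. In limma 6 of 26 were lower at an unadjusted p under 0.05 in each state, against 4.16% of all genes at rest and 6.64% after exercise. At the same cut 2 of 26 were higher at rest and 0 after exercise, against 4.07% and 3.75% of all genes. Exercise in WT mice called 1 of 26 higher, against 2.22% of all genes. Ucp3, the uncoupling protein of skeletal muscle, belongs to the SLC25 family and is listed here only because its symbol does not start with Slc25a. Ucp3 read 8.63, 8.74 and 8.59 on the WT sedentary arrays and 10.30, 10.32 and 9.98 on the WT exercised. It rose 2.91-fold (1.54 ± 0.15, adjusted p = 0.000152), and remained called in all 24 alternatives tried. In ERRa-null mice 0 of 26 were called, against 0.383% of all genes called higher and 0.255% called lower, and Ucp3 gave 0.71 ± 0.15 (adjusted p = 0.0659). Ucp3 read 9.28, 9.56 and 8.82 on the ERRa-null sedentary arrays, all above the WT sedentary ones. On the ERRa-null exercised arrays it read 10.04, 9.89 and 9.89. Averaged over genotypes Ucp3 rose (1.13 ± 0.11, adjusted p = 9.1e-05) and Sfxn2, a sideroflexin of the inner membrane, fell (-0.31 ± 0.08, adjusted p = 0.0490). That is 1 of 26 in each direction, against 3.14% of all genes called higher and 3.43% called lower. The Sfxn2 call was lost in 11 of 12 removals of a single array (adjusted p up to 0.119) and without the 3 female-profile arrays (-0.33, adjusted p = 0.259).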

How the data were processed

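Gastrocnemius RNA of 12 mice was measured on Affymetrix Mouse Gene 2.0 ST arrays. The authors deposited 1 log2 value per probeset and array, made by RMA with the Affymetrix Expression Console per the submitters' processing notes; version and build not given in the sources used here. Groups follow the titles, and the replicates are labelled biological.

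Of 41345 probesets, 23521 named 1 gene, 1814 several and 16010 none. Each of 22180 genes took its probeset with the highest mean; the 40% of genes with the lowest mean (under 5.32) were not tested. A further probeset that names Slc25a35 together with another gene was not used.

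The 4 group means were fitted with limma 3.58.1 (R 4.3.3; lmFit, contrasts, eBayes with trend; 8 residual degrees of freedom), two-sided, with Benjamini-Hochberg adjustment over 13308 genes. The fit was tested on simulated data. With 3 arrays a group, precision is limited by their number. Values on every array are given for called members, the 3 smallest p per comparison, the 6 highest means and pairs of close relatives. Members and lists were chosen with earlier results of these data known.

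Same-numbered arrays were checked for pairing by correlating deviations from group means. The 18 correlations ran from -0.28 to 0.35, and only for the exercised WT and ERRa-null arrays were all 3 over 0.1 (0.312, 0.207 and 0.174). The labels do not say that a number ties animals together, and correlations within the same data cannot show it. A block by number was therefore used only as an alternative. Alternatives covered the block, filters, scaling, probeset choice, array weights, other-tissue averages as covariates, and arrays left out. Promoters came from RefSeq.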

Additional observations from a re-analysis of the deposited data

How the results depend on the processing

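Precision is limited by 3 arrays a group. Other-tissue markers were uneven between arrays, and the 3 arrays of female profile all lie in exercised groups; the part of either in the results was not tested beyond the alternatives below. Most calls sit near the threshold. Over 62 pairs of a gene and a comparison (7 of them other genes), 1448 alternative values were computed: 1246 kept direction and side of the threshold, 174 lost the call, 17 gained it and 11 changed sign. Most pairs were not called in the main fit, so the 1246 do not measure how stable the calls were. All 174 losses fell on pairs called there. Calls of carriers were kept in as few as 4 of 24 alternatives (Slc25a5 by genotype after exercise) and in at most 20 of 22 (Slc25a16, exercise averaged over genotypes). The block on the 6 arrays compared and the other scalings of the overlap counts were chosen after seeing the data.

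Slc25a5 after exercise (1 carrier called) gave 0 with a replicate block over all 12 arrays, without the arrays of female profile, with no filter on dim genes, with 20% dropped, with a gene's probesets averaged, with quantile normalization, no intensity trend, other-tissue averages as covariates, or only the 6 arrays compared. It ranged from 0 to 1 when single arrays were left out. With a replicate block on the 6 arrays compared, Slc25a5 was called (adjusted p = 0.0413, 73 genes in all). For the same 6 arrays without the block the adjusted p was 0.0965, with 5 genes in all. The labels state no such pairs and the block was chosen from correlations in these same arrays, so no conclusion is drawn from it.

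Exercise in WT mice (3 carriers called) gave 0 with the covariates, 0 with only the 6 arrays, and 1 with a replicate block on those 6 arrays; single removals gave 0 to 3. Genotype averaged over states (2 called) gave 0 without the arrays of female profile, and 1 each with no filter, no intensity trend or the covariates; single removals gave 0 to 2. Exercise averaged over genotypes (4 called) gave 0 without the arrays of female profile, 7 with array weights and 0 with the covariates, while the genes called in all went from 874 to 172, 1269 and 57; single removals gave 1 to 6. The block changed no other count of called carriers by over 1.5 times. Counts of carriers without overlap stayed within 1.5 times under each scaling tried.

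Signs changed for estimates that were not called. With the covariates, the WT exercise estimate became 0.030 for Slc25a10, -0.0097 for Slc25a24 and -0.13 for Slc25a33, and the ERRa-null exercise estimate became 0.86 for Slc25a25, -0.082 for Slc25a34 and 0.23 for Slc25a5. Without the arrays of female profile, the ERRa-null exercise estimate became 0.10 for Slc25a23 and -0.18 for Slc25a34. With array weights that of Slc25a5 became 0.028. Leaving out single arrays, the ERRa-null exercise estimate ranged from -0.014 to 0.22 for Slc25a34 and from -0.11 to 0.046 for Slc25a5. The causes were not tested. Without the female-profile arrays 1 ERRa-null exercised array is left, assumed to vary like the other groups.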
